A study of Mus musculus with 6 samples.

Results

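The retinaldehyde dehydrogenase family genes Aldh1a7, Aldh1a2 and Aldh1a3 were examined in cultured mouse adipocytes that had been differentiated with or without the compound NJT-2. They are 3 of the 4864 genes analysed, taken by gene symbol from the gene table. They were selected on their levels in the same 6 libraries and the same comparison, so their differences between the groups are described here without a test. RNA sequencing had been run on adipose-derived stem cells (ADSCs), the fibroblast-like precursors of fat cells, from the subcutaneous fat of wild-type mice. The study's methods give male C57BL/6J mice as the source. All cultures received an adipogenic medium with dexamethasone, insulin, 3-isobutyl-1-methylxanthine, indomethacin and triiodothyronine. The vehicle group (labelled Control, n = 3 libraries) was differentiated without the compound. The NJT-2 group (n = 3) was differentiated with it and harvested, per the methods, on day 8. NJT-2 is saikosaponin A, a plant terpenoid described as a ligand of PPARγ, the nuclear receptor that drives fat cell formation. The concentration stated for the cell assays is 200 nM, and none is given separately for the sequenced cultures. The labels do not say whether the 3 libraries of a group came from separate cultures or animals, so p-values here measure the spread between these libraries, which may be technical.

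Retinoic acid is made from vitamin A in steps. Retinol dehydrogenases oxidise retinol to retinaldehyde, and cytosolic aldehyde dehydrogenases of the ALDH1A class then oxidise retinaldehyde irreversibly to retinoic acid. Retinoic acid binds the receptors RARα, RARβ and RARγ, which pair with RXR, the same partner that PPARγ uses on DNA. In fat, precursor cells exposed to retinoic acid early are held back from becoming adipocytes, and retinaldehyde itself has been described as a brake on PPARγ and RXR signalling. Aldh1a2 is the main retinoic acid-producing enzyme of the embryonic trunk, and Aldh1a3 that of parts of the eye and nose. Aldh1a7 is a rodent gene beside Aldh1a1, and the gene table's own Gene Ontology terms separated it from the other members. Retinal dehydrogenase activity was assigned to Aldh1a2 and Aldh1a3 but not to Aldh1a7, for which 0 of its 8 terms held the letters retin or the words vitamin A. For Aldh1a2 it was 12 of 55 terms and for Aldh1a3 6 of 31 terms. The terms of Aldh1a7 that neither other member had were benzaldehyde dehydrogenase activity, non-phosphorylating glyceraldehyde-3-phosphate dehydrogenase activity and ethanol catabolic process, and all 3 members shared aldehyde dehydrogenase (NAD+) activity.

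In the mouse build GRCm38 (GENCODE M21), Aldh1a7 (ENSMUSG00000024747) lies on chr19:20692953-20727562 on the minus strand, with 13 exons and a coding sequence of 1503 bases. Aldh1a2 (ENSMUSG00000013584) lies on chr9:71215789-71296243 on the plus strand, with 14 exons and 1554 coding bases. Aldh1a3 (ENSMUSG00000015134) lies on chr7:66390890-66427517 on the minus strand, with 13 exons and 1536 coding bases. The coding sequence of Aldh1a7 was 91.6% identical to that of Aldh1a1, which ends 49488 bases away on the same chromosome and was not analysed here. It was 68.3% identical to that of Aldh1a2 and 67.9% to that of Aldh1a3, about as far as Aldh1a2 and Aldh1a3 were from each other (69.5%). The longest run of identical bases between Aldh1a7 and Aldh1a1 was 100, and 0 of the 1917 stretches of 150 bases in the Aldh1a7 transcript occurred in a transcript of another gene. Shorter reads or reads with a mismatch could still have been divided between these paralogs, so the level of Aldh1a7 carries that uncertainty. A processed pseudogene, Gm48124, lies inside the Aldh1a2 locus on the opposite strand.

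The promoter windows of 2 members, taken from RefSeq (build GRCm38.p6, 250 bases before to 50 after the transcription start) are shown because these genes lay on opposite sides of the comparison. The Aldh1a7 window is chr19:20727507-20727806 read from the minus strand, and the Aldh1a2 window is chr9:71215539-71215838 read from the plus strand. Both are written 5′ to 3′, with the octamer ATGCAAAT and each CCAAT box in capitals.
Aldh1a7: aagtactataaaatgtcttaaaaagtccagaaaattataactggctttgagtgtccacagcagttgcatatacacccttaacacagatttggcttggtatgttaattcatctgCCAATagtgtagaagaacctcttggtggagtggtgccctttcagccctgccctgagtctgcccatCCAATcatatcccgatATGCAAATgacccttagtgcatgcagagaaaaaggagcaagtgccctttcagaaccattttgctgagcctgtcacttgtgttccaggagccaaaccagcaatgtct
Aldh1a2: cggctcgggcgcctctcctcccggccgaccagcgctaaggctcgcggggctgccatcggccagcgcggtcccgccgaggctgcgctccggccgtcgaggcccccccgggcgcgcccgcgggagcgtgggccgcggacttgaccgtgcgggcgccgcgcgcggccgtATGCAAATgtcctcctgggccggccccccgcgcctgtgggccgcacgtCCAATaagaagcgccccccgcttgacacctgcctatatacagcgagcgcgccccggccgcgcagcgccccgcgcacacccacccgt
The windows differed in composition, with 44.0% G and C in Aldh1a7 and 78.0% in Aldh1a2, against a median of 52.7% over 32851 windows of the same length. The octamer, the core site of POU-family factors, started 56 bases before the transcription start in Aldh1a7 and 84 bases before it in Aldh1a2, on the gene's own strand in both. It occurred on either strand in 1.74% of all windows. CCAAT started 137 and 72 bases before the start in Aldh1a7 and 36 bases before it in Aldh1a2, and it occurred in 37.4% of all windows. The TATA box letters TATAAA (13.6% of all windows) started 244 bases before the start in Aldh1a7 and had no match in Aldh1a2. The nuclear receptor half-site AGGTCA (16.3% of all windows), its direct repeat with 1 base between, AGGTCANAGGTCA (0.0396%), and its repeat with 5 bases between, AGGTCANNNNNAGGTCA (0.00913%), had no match on either strand of these windows. The motifs were chosen after the windows were seen, and a match to the letters is not evidence of binding. The Aldh1a7 window was 77.3% identical to the Aldh1a1 window at chr19:20601718-20602017, including a shared run of 65 bases, and 49.8% identical to the Aldh1a2 window. The promoter of Aldh1a3 was not analysed here.

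The libraries held 16093037 to 28929673 counts over the analysed genes. These genes took 27.7% to 32.5% of each library, as judged from the relation of counts to FPKM (fragments scaled to transcript length and to the number mapped in the library). Vehicle replicate 1 and NJT-2 replicate 2 stood apart from the others of their group. Over the tested genes the distance between libraries on log2(FPKM + 1) was 27.7 for vehicle replicates 2 and 3 and 11.8 for NJT-2 replicates 1 and 3. It was 53.8 or more for vehicle replicate 1 against either other vehicle library, and 55.3 or more for NJT-2 replicate 2 against either other NJT-2 library. The main values that rest on these libraries are also given without them.

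Aldh1a7 was low in every vehicle library and high with NJT-2. Its FPKM was 1.49, 2.24 and 2.01 in vehicle replicates 1 to 3. It was 89.7, 18.1 and 79.7 in NJT-2 replicates 1 to 3. The groups did not overlap, and NJT-2 replicate 2 was the low library of its group, still 8.06 times the highest vehicle value. The means were 1.91 ± 0.384 FPKM with vehicle and 62.5 ± 38.8 FPKM with NJT-2 (SD, n = 3 each). In counts, 179, 412 and 297 reads stood against 13152, 2615 and 11503. The fitted log2 fold change of NJT-2 over vehicle was 4.84 (SE 0.62), a 28.6-fold higher level. Without NJT-2 replicate 2 the NJT-2 mean was 84.7 ± 7.11 FPKM (SD, n = 2) and the fitted difference 38.4-fold. Ranked by mean FPKM among the 4864 genes, Aldh1a7 stood at the 38.3rd percentile with vehicle and at the 94.8th with NJT-2. In bulk RNA, more RNA per cell and more cells of a type that expresses the gene cannot be told apart.

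Aldh1a2 showed the opposite order. Its FPKM was 3.05, 14.5 and 16.5 in vehicle replicates 1 to 3. With NJT-2 it was 1.13, 1.99 and 1.28. The groups again did not overlap, but the margin was narrow, since vehicle replicate 1 was only 1.53 times the highest NJT-2 value, and the vehicle libraries spanned 5.42-fold among themselves. The means were 11.4 ± 7.26 FPKM with vehicle and 1.47 ± 0.459 FPKM with NJT-2 (SD, n = 3 each). The counts were 401, 2923 and 2669 with vehicle and 182, 315 and 204 with NJT-2. The fitted log2 fold change was -2.96 (SE 0.57), a level 7.80-fold lower with NJT-2. Without vehicle replicate 1 the vehicle mean was 15.5 ± 1.44 FPKM (SD, n = 2) and the log2 fold change -3.37. By rank, Aldh1a2 stood at the 74.6th percentile of the 4864 genes with vehicle and at the 32.1st with NJT-2.

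Aldh1a3 was close to undetected. Vehicle replicates 1 to 3 gave 0, 27 and 21 counts, and NJT-2 replicates 1 to 3 gave 23, 50 and 32. The deposited FPKM, rounded to 2 decimals, was 0, 0.06 and 0.06 against 0.07, 0.15 and 0.10. The groups did not overlap but adjoined at the rounding of the table. A count of 0 in vehicle replicate 1 allows up to 3 counts, or 0.0109 FPKM, in counting error alone. The mean was 0.04 ± 0.0346 FPKM with vehicle and, in the NJT-2 group, 0.107 ± 0.0404 (SD, n = 3 each), and the gene was under the filter of a mean FPKM of 0.5 that 3705 genes passed. In the fit without that filter its log2 fold change was 1.27 with an SE of 1.40, and it lay between 0.76 and 1.74 when single libraries were left out. By rank it stood at the 12.4th percentile with vehicle and at the 14.3rd with NJT-2.

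**Figure D1:**
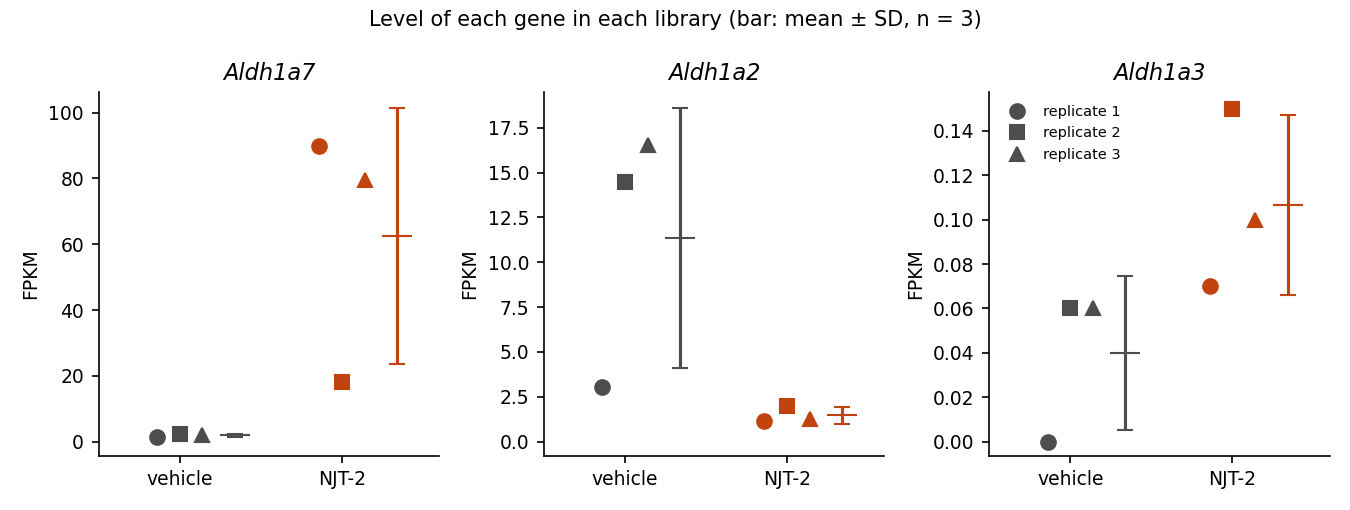
FPKM of the 3 members in each of the 6 libraries (1 symbol a library, its shape the replicate number; horizontal bar the group mean, vertical line 1 SD to each side; each panel with its own linear axis). Aldh1a7 was 1.49 to 2.24 with vehicle and 18.1 to 89.7 with NJT-2, Aldh1a2 was 3.05 to 16.5 with vehicle and 1.13 to 1.99 with NJT-2, and Aldh1a3 was at most 0.15 in any library.

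Of the members, 2 of 3 passed the filter, Aldh1a7 with every NJT-2 library above every vehicle library and Aldh1a2 with every NJT-2 library below. Such an order was frequent here, since 14.4% of the 3705 tested genes had all NJT-2 values above all vehicle values and 11.5% had all of them below. As the members had been selected on this contrast, nothing is read from their count.

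The make-up of the family's messages differed between the groups. Summed over the 3 genes, FPKM was 4.54, 16.8 and 18.6 in vehicle replicates 1 to 3 and 90.9, 20.2 and 81.1 in NJT-2 replicates 1 to 3. NJT-2 replicate 2 and vehicle replicate 3 were thus nearly equal in sum while differing in composition. Aldh1a2 made up 67.2%, 86.3% and 88.9% of the sum in the vehicle libraries. With NJT-2 it made up 1.24%, 9.85% and 1.58%. Aldh1a7 made up 32.8%, 13.4% and 10.8% of the sum with vehicle and 98.7%, 89.4% and 98.3% with NJT-2. On average Aldh1a7 took 19.0 ± 12.04% of the sum without the compound and 95.5 ± 5.25% in its presence (SD, n = 3 each). Without vehicle replicate 1 the former was 12.1%, and without NJT-2 replicate 2 the latter was 98.5%. Aldh1a3 never exceeded 0.743%. Within a library, Aldh1a2 was 2.05, 6.46 and 8.22 times Aldh1a7 with vehicle, and Aldh1a7 was 79.4, 9.08 and 62.3 times Aldh1a2 with NJT-2. The order of these genes was therefore the same in all 3 libraries of a group and opposite between the groups, also in the libraries that stood apart. Their selection on this same contrast favours such an order. These ratios are between FPKM values of 1 library and so do not depend on the scaling between libraries. Aldh1a1, another member of the class, is not in these sums.

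**Figure D2:**
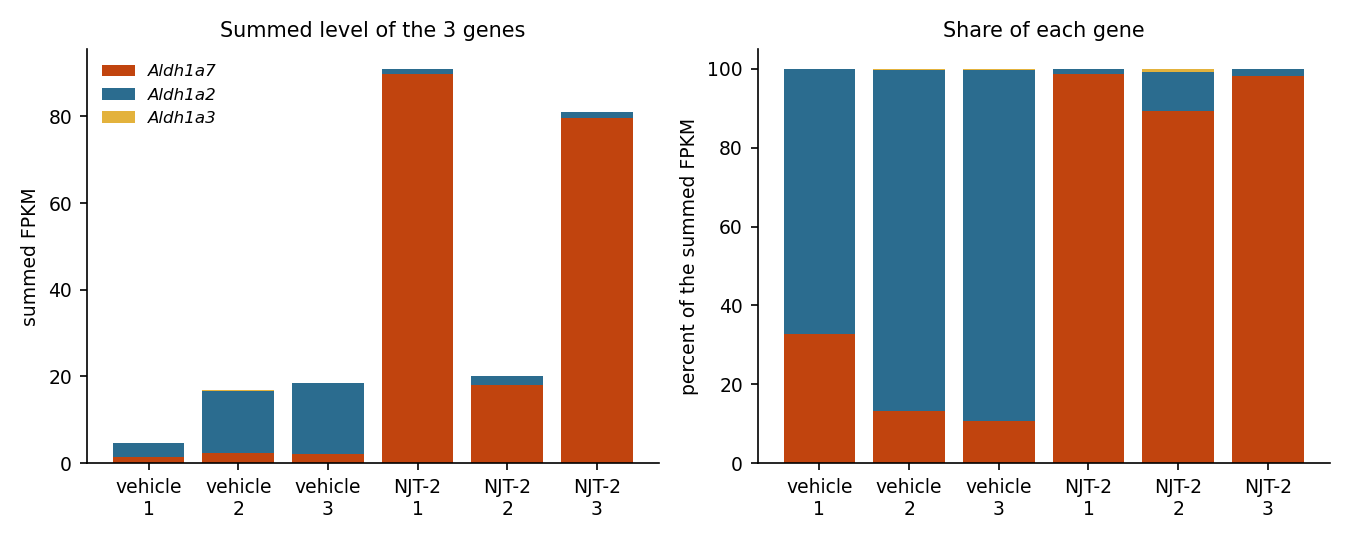
Left, FPKM of the 3 members stacked to their sum in each of the 6 libraries; right, each member's share of that sum in percent. The sum ran from 4.54 in vehicle replicate 1 to 90.9 in NJT-2 replicate 1, and Aldh1a2 was 67.2% to 88.9% of it with vehicle while Aldh1a7 was 89.4% to 98.7% with NJT-2.

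Across the 6 libraries the log2(FPKM + 1) of Aldh1a7 and Aldh1a2 correlated at a Pearson r of -0.80, that of Aldh1a7 and Aldh1a3 at 0.56, and that of Aldh1a2 and Aldh1a3 at -0.305. These are descriptions of 6 libraries in 2 groups, which share the contrast and the libraries that stood apart, and each gene that differs between the groups takes part in such a correlation.

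The genes with the profile most like each member were found by the same measure among the 3466 tested genes that averaged 1 FPKM or more. For Aldh1a7 they were Echdc1, Mlxipl, Plin4, Ephx2 and Ms4a6d, with r from 0.995 for Ms4a6d to 0.997 for Echdc1, against a median of 0.196 over the compared genes. Mlxipl encodes ChREBP, a carbohydrate-responsive transcription factor, and Plin4 a lipid droplet protein. Mlxipl, at most 0.24 FPKM with vehicle, and Ms4a6d, at most 0.84, reached the mean of 1 FPKM only through their NJT-2 values. Ephx2, the soluble epoxide hydrolase, had FPKM of 3.55, 3.34 and 2.93 with vehicle and 145, 22.8 and 107 with NJT-2. All 5 had their lowest NJT-2 value in replicate 2, as Aldh1a7 did, which their selection by r over the same libraries favours. Around Aldh1a2 the genes were Ifngr2, Rangap1, Sh3bp5, Sufu and Rhobtb2, with r from 0.981 for Rhobtb2 to 0.995 for Ifngr2 and a median of 0.0831 over the compared genes. Ifngr2 is a chain of the interferon-gamma receptor, with 12.9, 23.2 and 22.8 FPKM without the compound and 10.3, 11.4 and 11.2 with it. Sufu, an inhibitor of Hedgehog signalling, had 5.63, 7.42 and 8.74 with vehicle and 3.95, 4.63 and 3.98 with NJT-2. In each of the 5 the lowest vehicle value was that of replicate 1, as in Aldh1a2, again favoured by the selection. The genes nearest Aldh1a3, over 3467 genes, were Hmox1, 1810013L24Rik, Reps1, Ptk2 and Axin1, with r from 0.979 for Axin1 to 0.990 for Hmox1. With at most 50 counts for Aldh1a3 in a library, this ranking rests on few reads. Hmox1, the inducible heme oxygenase, had FPKM of 47.1, 159 and 148 with vehicle and 215, 961 and 265 with NJT-2, the highest in NJT-2 replicate 2.

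**Figure D3:**
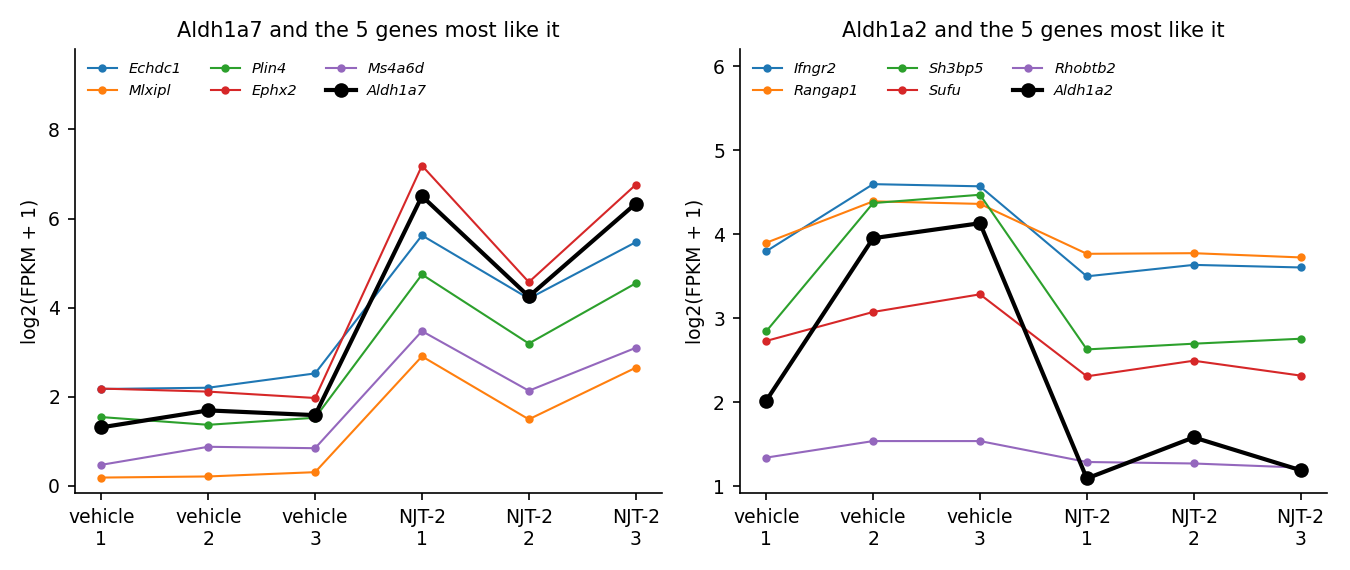
log2(FPKM + 1) in each of the 6 libraries for Aldh1a7 (left, black) and Aldh1a2 (right, black) with the 5 genes of the highest Pearson correlation with each; lines only follow a gene from library to library. The curves around Aldh1a7 dip at NJT-2 replicate 2, and those around Aldh1a2 are lower at vehicle replicate 1 than at the other vehicle libraries.

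The rest of the retinoid pathway was described from a list of 104 genes, of which 32 were among the genes analysed and 23 passed the filter. Of these 23, 2 rose with NJT-2 (Rbp4 and Lipe), 0 fell and 21 were not called by edgeR's quasi-likelihood test at a Benjamini-Hochberg adjusted p of 0.05 and a log2 fold change of 1 in size. Over all 3705 tested genes 0.567% were called higher (21 genes) and 0.135% lower (5 genes). With upper-quartile scaling those counts were 20 and 9. The median log2 fold change of the 23 genes was 0.55, against 0.020 over all tested genes. Leaving out NJT-2 replicate 2 brought it to 0.13, and leaving out both libraries that stood apart to 0.28. At an unadjusted p under 0.05, 5 of the 23 were higher and 2 lower, where 8.04% and 9.72% of all tested genes were. DESeq2 called 4 higher and 1 lower, where it called 4.48% higher and 3.46% lower of the 3638 genes to which it gave an adjusted p.

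Among carriers, Rbp4 (chr19:38116629-38125281), the retinol-binding protein secreted by liver and fat, was the one gene tested. It had 0.99, 1.14 and 0.84 FPKM in the vehicle libraries and 18.7, 15.1 and 10.9 with NJT-2, with no overlap and no library standing apart. The log2 fold change was 3.69 (SE 0.47, adjusted p = 0.0270 by edgeR). Rbp4 was called under 11 of 16 alternatives, with adjusted p from 1.69e-12 to 0.243, and lost its call without any 1 library other than NJT-2 replicate 2, while its log2 fold change stayed between 2.97 and 3.90.

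Among genes of retinyl ester turnover, Lipe (chr7:25379527-25398710) encodes hormone-sensitive lipase, which releases fatty acids from triglyceride and also hydrolyses retinyl esters. It had an FPKM of 2.88, 2.16 and 2.2 with vehicle and 85.6, 17.2 and 65.0 with NJT-2. Replicate 2 was again the low NJT-2 library. The log2 fold change was 4.25 (SE 0.67, adjusted p = 0.0432 by edgeR), and the call was kept under 11 of 16 alternatives, with adjusted p from 3.54e-10 to 0.300, and lost in the same 5 cases as that of Rbp4. Without NJT-2 replicate 2 the log2 fold change was 4.66. Lipe is also one of the adipocyte markers below. Dgat1, which esterifies retinol as well as diglyceride, had FPKM of 25.9, 14.5 and 9.71 with vehicle and 67.0, 9.62 and 52.1 with NJT-2. Its groups overlapped, with NJT-2 replicate 2 below all vehicle libraries (log2 fold change 0.99, adjusted p = 0.462 by edgeR). Without that library it was at 1.45 on the log2 fold change scale (adjusted p = 0.298 by edgeR), and without vehicle replicate 1 at 1.77 (adjusted p = 0.372).

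Of the genes listed for the oxidation of retinol, only 2 were tested and 0 called. Most of that list was not among the genes analysed, so the step as a whole was not measured. Rdh5 had FPKM of 5.00, 1.89 and 1.20 with vehicle and 2.59, 1.52 and 2.21 with NJT-2 (log2 fold change -0.76, adjusted p = 0.555 by edgeR). The sign turned without vehicle replicate 1, to 0.43 (adjusted p = 0.673). Rdh12, which works mainly in the reductive direction in photoreceptors, was at most 1.04 FPKM in any library (log2 fold change 0.57, adjusted p = 0.609 by edgeR, and 0.17 without vehicle replicate 1). Of the 4 tested genes listed as retinaldehyde reductases 0 were called, and all lay between -0.41 and 0.70 on the log2 fold change scale. The best expressed were Dhrs7, with a mean of 11.9 ± 2.12 FPKM with vehicle and 17.9 ± 8.25 with NJT-2, and Dhrs4, with 14.4 ± 3.45 and 12.5 ± 5.81 (SD, n = 3 each). Both differences rested on NJT-2 replicate 2, the highest library for Dhrs7 and the lowest for Dhrs4. Without it the NJT-2 means were 13.1 and 15.8 FPKM, and the log2 fold changes went from 0.41 to -0.10 for Dhrs7 and from -0.41 to -0.10 for Dhrs4. Cyp26a1, picked after its values were seen, the enzyme that clears retinoic acid and a classical target of its receptors, had 3 counts in NJT-2 replicate 1 and 0 in every other library, which was too few to compare.

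Of the receptors and binding proteins, 4 were tested and 0 called. Rxra, the shared partner of RARs and PPARs, had a mean of 13.1 ± 0.831 FPKM with vehicle and, in the NJT-2 group, 15.6 ± 8.42 (SD, n = 3 each), and the fitted log2 fold change was 0.0051. By library it was 13.7, 12.1 and 13.5 FPKM against 21.3, 5.95 and 19.7, so that NJT-2 replicates 1 and 3 lay above every vehicle library and replicate 2 below them. Without replicate 2 the log2 fold change was 0.38 (adjusted p = 0.527 by edgeR). Ppard was at 4.81 ± 0.751 and 9.23 ± 6.09 FPKM (log2 fold change 0.80, adjusted p = 0.388 by edgeR), with the highest value in NJT-2 replicate 2, without which the log2 fold change was 0.026. Of genes picked after their values were seen, Rarg, the retinoic acid receptor gamma, had 5.10, 7.54 and 7.23 FPKM with vehicle and 2.46, 4.02 and 3.05 with NJT-2. Its groups did not overlap, yet its log2 fold change of -1.21 (SE 0.34) did not pass (adjusted p = 0.164 by edgeR), while DESeq2 called it. Rxrg, an RXR best known from skeletal muscle, was also picked after its values were seen and was under the filter. Its counts were 0 in all 3 vehicle libraries and 196, 27 and 130 with NJT-2. If every vehicle library is set to a floor of 3 counts, its level with NJT-2 was at least 39.3-fold higher, or at least 26.5-fold without NJT-2 replicate 1. In the unfiltered fit over 4821 genes the adjusted p of edgeR was 0.0857, and it ran from 1.64e-06 to 0.380 over the alternatives. Rarb, itself induced by retinoic acid in many cells and likewise picked after its values were seen, gave 0, 98 and 162 counts without the compound and 73, 65 and 102 with it, so its groups overlapped.

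The tested coactivators and corepressors, 4 genes, all had positive fold changes, where 1883 of all 3705 tested genes did. The groups overlapped in Ncoa2 and Med1. By edgeR 0 of these 4 genes were called, and DESeq2 called Ncor1 and Ncoa1 higher. Ncor1, a corepressor of RAR and PPARγ, had 1.62, 3.85 and 9.23 FPKM with vehicle and 16.7, 10.8 and 15.5 with NJT-2 (log2 fold change 1.49, adjusted p = 0.215 by edgeR). Ncoa1, a coactivator named here after its values were seen, had 0.41, 1 and 2.36 FPKM with vehicle and 5.12, 3.35 and 4.86 with NJT-2, with no overlap (log2 fold change 1.77, adjusted p = 0.171 by edgeR). Med1, the Mediator subunit that contacts nuclear receptors, was at 0.52 on the log2 fold change scale (adjusted p = 0.404 by edgeR). Ncor1, Ncoa1 and Med1 were lowest in vehicle replicate 1, without which their log2 fold changes were 1.12, 1.39 and 0.24. Of the 6 response genes tested 0 were called. Rarres2 (chemerin), an adipokine named for its response to a retinoid, had 127, 89.1 and 49.3 FPKM with vehicle and 12.5, 55.2 and 9.19 with NJT-2. Its log2 fold change was -2.05 (SE 0.84, adjusted p = 0.270 by edgeR), and NJT-2 replicate 2 lay within the vehicle range. Leaving that library out gave -3.39 (adjusted p = 0.0857 by edgeR), and leaving out vehicle replicate 1 gave -1.36 (adjusted p = 0.527). Angptl4, an inhibitor of lipoprotein lipase and a target of PPARs, had 41.3, 62.5 and 56.4 FPKM with vehicle and 46.3, 166 and 41.1 with NJT-2, with overlap (log2 fold change 0.55, adjusted p = 0.604 by edgeR). The sign turned without NJT-2 replicate 2, to -0.49 (adjusted p = 0.334).

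**Figure D4:**
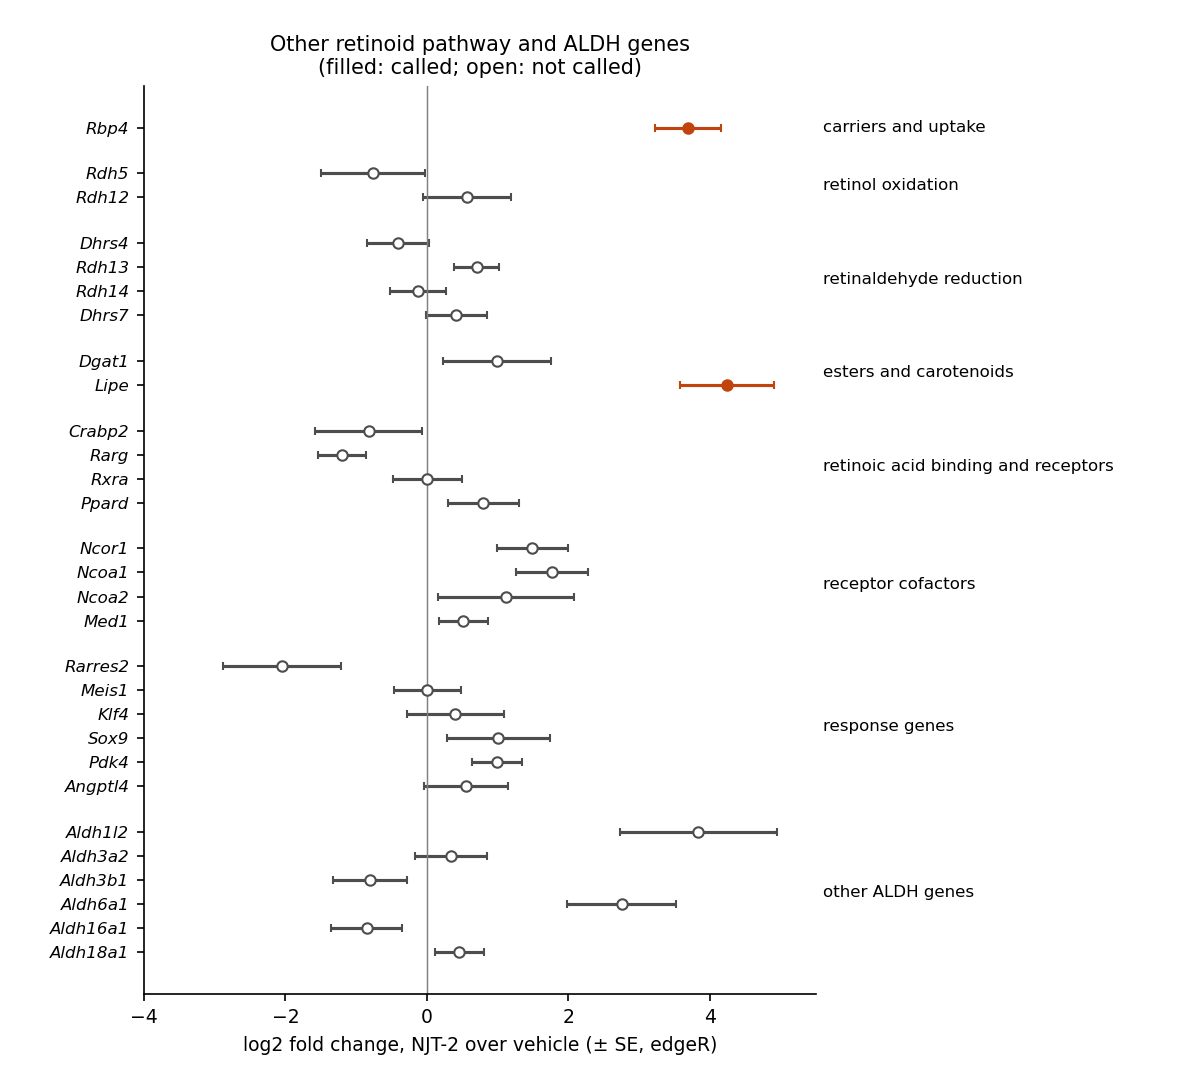
Log2 fold change of NJT-2 over vehicle with 1 standard error to each side, from the edgeR fit, for the 23 tested retinoid pathway genes by role and the 6 tested genes of the aldehyde dehydrogenase superfamily (filled symbols called, open symbols not called). Rbp4 at 3.69 and Lipe at 4.25 passed the test, and the lowest value was that of Rarres2 at -2.05.

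In the wider aldehyde dehydrogenase superfamily, 7 of 18 listed genes were analysed, 6 tested and 0 called by edgeR. At an unadjusted p under 0.05, 2 were higher, against the 8.04% of all tested genes given above, and DESeq2 called 1 higher (Aldh6a1), against 4.48%. The lowest log2 fold change among them was -0.85, the highest 3.83 and the median 0.40. That median was 0.084 without vehicle replicate 1 and 0.016 without both libraries that stood apart. Aldh6a1, the mitochondrial enzyme of valine breakdown, had 0.76, 4.73 and 7.77 FPKM with vehicle and 43.9, 9.93 and 37.6 with NJT-2. Its groups did not overlap and replicate 2 was the low NJT-2 library, the order also seen in Aldh1a7 (log2 fold change 2.75, SE 0.77, adjusted p = 0.164 by edgeR). Aldh18a1, which begins proline synthesis, was at 12.3 ± 4.82 FPKM with vehicle and, in the NJT-2 group, 17.9 ± 4.98 (SD, n = 3 each), and its log2 fold change of 0.46 was 0.14 without NJT-2 replicate 2. Aldh1l2, the mitochondrial formyltetrahydrofolate dehydrogenase, was picked after its values were seen. It had 0.32, 1.06 and 3.20 FPKM with vehicle and 6.71, 50.6 and 5.80 with NJT-2, so that replicate 2 was the high NJT-2 library, the reverse of the order in Aldh1a7 (log2 fold change 3.83, SE 1.11, adjusted p = 0.173 by edgeR). Without that library its log2 fold change was 1.98.

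Markers of cell types moved with the same libraries. Of 21 adipocyte markers 13 were analysed, and all 12 tested had NJT-2 libraries above vehicle libraries, 6 of them called (Adipoq, Cd36, Plin4, Lipe, Gpd1 and Pnpla2). Over all tested genes 14.4% had that order and 0.567% were called higher. Some of the 12, among them Adipoq, Plin5 and Slc2a4, passed the filter only through their NJT-2 values, which favours this order. Their vehicle means were 0.423, 0.03 and 0.0833 FPKM. The 6 calls became 0 without vehicle replicate 1 or 2, 2 without vehicle replicate 3, 1 without NJT-2 replicate 1 or 3 and 7 without NJT-2 replicate 2, and DESeq2 called all 12. Their summed FPKM was 85.1 to 106 with vehicle and 1876, 499 and 1500 in NJT-2 replicates 1 to 3, so that NJT-2 replicate 2 was low in this sum as it was in Aldh1a7. All 12 tested markers had their lowest NJT-2 value in replicate 2. Among the vehicle libraries the markers were not of one order: 6 of 12 were lowest in replicate 1, as Aldh1a7 was, and 5 were highest there, among them Lpl (lipoprotein lipase), which gave 78.8 FPKM of the sum in that library. Adipoq, the adipocyte hormone adiponectin, was only 0.38 to 0.50 FPKM in the vehicle libraries, labelled as differentiated, and 64.6, 22.0 and 58.5 with NJT-2. Plin5 and Slc2a4 were at 0 in vehicle replicate 1, and Cidea was at 0 in all vehicle libraries and at 0.11, 0.05 and 0 FPKM with NJT-2. Of 20 progenitor and fibroblast markers 6 were analysed and tested, and 1 fell by edgeR (Pi16, 22.3, 19.4 and 12.5 FPKM against 1.73, 0.98 and 1.95). Of all tested genes 0.135% were called lower. The call of Pi16 was kept without vehicle replicate 3 or NJT-2 replicate 2 and lost without each other library. DESeq2 called 3 of the 6 lower (Pdgfrb, Pi16 and Dcn), where it called 3.46% of genes lower. Leaving out both libraries that stood apart gave the same 3, where 227 of the 3705 tested genes were called lower. The summed FPKM of the 6 markers was 228, 782 and 999.9 in vehicle replicates 1 to 3 and 444 to 488 with NJT-2. Vehicle replicate 1 was thus low in this sum, as it was in Aldh1a2. Of the 6 markers 5 were lowest among the vehicle libraries in replicate 1, while Pi16 was highest there. Col1a1, a collagen, gave most of the sum (118 FPKM in vehicle replicate 1 and 376 to 408 with NJT-2). In vehicle replicate 1, Pi16 and Pdgfrb were above every NJT-2 library, as Aldh1a2 was, and the other 4 were not. The part of adipocyte content in the level of Aldh1a7, and of progenitor content in that of Aldh1a2, was not tested.

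**Figure D5:**
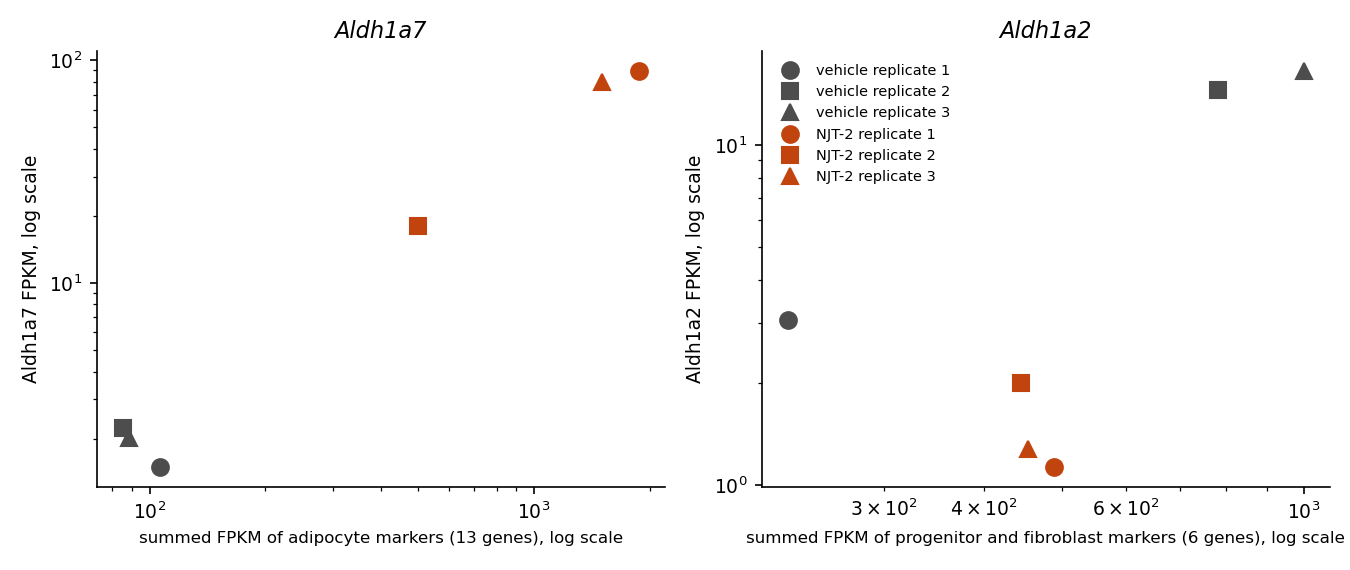
Left, FPKM of Aldh1a7 against the summed FPKM of the 13 analysed adipocyte markers; right, FPKM of Aldh1a2 against the summed FPKM of the 6 analysed progenitor and fibroblast markers, both axes on a log scale and 1 symbol a library. On the left the NJT-2 libraries lie at sums of 499 to 1876, above all vehicle libraries; on the right vehicle replicate 1 has the lowest sum (228) and 3.05 FPKM of Aldh1a2, between the other vehicle libraries and the NJT-2 libraries.

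The levels of other marker lists varied by list. Of 20 macrophage markers 6 were analysed and 4 tested, with 1 called higher by edgeR (Adgre1, 0.88, 1.78 and 2.15 FPKM against 22.9, 6.97 and 19.7). Of all tested genes 0.567% were called higher. When single libraries were left out, the call was kept only without NJT-2 replicate 2. It was also lost with scaling to library totals alone. DESeq2 called 2 higher (Adgre1 and Cd68), where it called 4.48% of genes higher. Leaving out both libraries that stood apart gave 3 (Adgre1, Cd68 and Fcgr1), where 255 of the 3705 tested genes were called higher. The summed FPKM of the macrophage markers was 9.71 to 12.8 with vehicle and 60.4, 31.5 and 45.9 with NJT-2, again lowest for NJT-2 in replicate 2. Adgre1 and Cd68 gave most of that sum, and Csf1r was at 4.12, 4.56 and 3.05 FPKM with NJT-2 and 3.69, 3.58 and 2.52 with vehicle (log2 fold change 0.025). Cd163 was at 0 in vehicle replicates 1 and 2 and Fcgr1 at 0 in vehicle replicate 1. Fcgr1, with means of 0.08 FPKM with vehicle and 1.04 with NJT-2, passed the filter only through its NJT-2 values. Of 15 mesothelial markers 6 were analysed and 1 tested. Krt19 was 87.9 FPKM in NJT-2 replicate 2 and 0.58 and 0.63 in NJT-2 replicates 1 and 3, against 3.45, 2.74 and 2.5 with vehicle. It was not called in the main fit. With both libraries that stood apart left out it was among the 227 genes called lower. Wt1, Bnc1 and Krt18 were also highest in NJT-2 replicate 2, at low levels of 0.67, 0.02 and 1 FPKM (294, 8 and 101 counts). Krt7 was at 0 in all NJT-2 libraries and at most 0.04 FPKM with vehicle, and Cdh1 was at most 0.04 FPKM, in NJT-2 replicate 3. Of 13 endothelial markers 4 were analysed, 2 tested (Pecam1 and Tek) and 0 called, with sums of 1.15 to 2.92. The part of these cell types in the members' levels was not tested.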

How the data were processed

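Poly(A) RNA from 6 libraries was sequenced by the authors. Per the submitters' processing notes, cutadapt 1.9, HISAT2 2.2.1, StringTie 2.1.6, DESeq2 and edgeR were used with GRCm38. The counting step, its strand setting and the annotation are not given in the sources used here. The deposited table gives whole read counts and FPKM per gene, which the authors normalised to transcript length and library total. It was analysed for 4864 complete lines (1 incomplete line was left out), all with an ID in GENCODE M21 (55450 genes). Other genes were not analysed here, Aldh1a1 among them.

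Counts were tested with edgeR 4.0.16 (R 4.3.3; trimmed mean of M-values scaling, quasi-likelihood test, group as the only term) on the 3705 genes that averaged 0.5 FPKM or more, with Benjamini-Hochberg adjustment over all of them. Calls needed an adjusted p under 0.05 and a log2 fold change of at least 1 in size. The study used DESeq2, which is given here as an alternative (DESeq2 1.42.0). Aldh1a3 was fitted without the filter. The script was tested on simulated data. Chi-square statistics per gene between libraries were 56.6 or more, so none were copies. Library totals were recovered from counts and FPKM.

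The members and gene lists were chosen with earlier results of these data known. Named genes were the members, every called list gene, the 2 best expressed tested genes of each role, the 5 genes most like each member, and of each marker list the called genes or otherwise the 2 best expressed. Outside this rule, and after their values were seen, Rarg, Rarb, Rxrg, Cyp26a1, Ncoa1, Ncoa2 and Aldh1l2 were named as well. So were some markers: Plin5, Slc2a4, Cidea, Lpl, Col1a1, Pdgfrb, Dcn, Cd163, Cd68, Csf1r, Fcgr1, Wt1, Bnc1, Krt7, Krt18 and Cdh1. Likeness was Pearson's r on log2(FPKM + 1). Alternatives were DESeq2, other scalings and filters, limma 3.58.1 on log2 FPKM with pseudocounts of 1 and 0.1, the replicate block and leaving out libraries. Scaling to library totals alone moved the median log2 fold change of tested genes to 0.16. Counting intervals and floors cover counting error only.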

Additional observations from a re-analysis of the deposited data

How the results depend on the processing

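The members kept their direction under every alternative run, and each moved by less than the spread within the groups: Aldh1a7 between 4.16 and 5.31 and Aldh1a2 between -3.68 and -2.08 on the log2 fold change scale (16 alternatives each), and Aldh1a3 between 0.09 and 1.94 (13). Aldh1a3 could not be fitted under the stricter filters. Leaving out single libraries gave 4.48 to 5.26, -3.37 to -2.69 and 0.76 to 1.74, and shares of Aldh1a7 of 12.1% to 23.1% with vehicle and 93.9% to 98.5% with NJT-2. Counts of calls depended on the tool and on single libraries. Retinoid genes called were 2 of 23, and 5 with DESeq2. They were 0 to 2 without single libraries (2 only without NJT-2 replicate 2). Leaving out both vehicle replicate 1 and NJT-2 replicate 2, chosen after seeing the data, gave 6: Rbp4, Lipe, Ncoa1 and Dgat1 higher, Rarg and Rarres2 lower. Superfamily genes called were 0, 1 with DESeq2 and 1 without that pair, Aldh6a1 in both, and 0 without any single library. Genes called over the whole table were 26, 289 with DESeq2, 482 without that pair, and 0 (without vehicle replicate 2) to 75 (without NJT-2 replicate 2) without single libraries, with 4 without vehicle replicate 3 and 1 without each of the others. The cause was not tested. With a replicate block 57 genes were called, 2 of them retinoid genes, and the members were at 4.59, -2.84 and 1.94. The replicate numbers are shared between the groups, but the deviations of same-numbered libraries correlated at 0.19, -0.036 and -0.17, so they were not taken as pairs. With at most 50 counts in a library, depth limits any statement on Aldh1a3.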
